A study of Drosophila melanogaster with 6 samples.

Results

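The vacuolar ATPase (V-ATPase) and a small group of ion pumps were examined in adult heads of Drosophila melanogaster that overexpress the RNA-binding protein LARK. The members were all genes that the array annotation names with a symbol starting with Vha, together with Atpalpha, nrv1, nrv2, nrv3, SERCA and PMCA, each read by its probe set of highest mean log2 signal over the 6 arrays. This gave 34 of the 10844 genes with a probe set of a single annotated symbol: 11 genes of the V1 sector, 16 of the V0 sector, 2 accessory proteins, 3 beta subunits of the sodium pump and 2 calcium pumps. Atpalpha, the catalytic subunit of the sodium pump, is not annotated to a probe set, and Vha100-3, Vha16-3, Vha68-1 and Vha68-2 were not measured by name and are not analysed here. Of the genes for the catalytic A subunit of the V-ATPase only Vha68-3 was read.

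In LARK overexpression flies (elav-gal4; uas-lark/+) the elav driver, active in all neurons, switches on a lark transgene, and the flies pooled were elav-gal4; uas-lark/+ males and elav-gal4/+; uas-lark/+ females. Control flies, elav-gal4 males and elav-gal4/+ females, carry the same driver without the transgene. All flies were kept at 25°C in 12 h of light and 12 h of darkness and taken at ZT6, 6 h after lights-on, and the sources used here do not state their age. By the series' own account the 3 arrays of a genotype repeat the labeling of 1 RNA sample, so the p-values given here do not measure the spread between flies. On that account they measure the spread of labeling and hybridization, but LARK overexpression array 1 stood far from arrays 2 and 3 for some genes (the muscle gene fln read 20.6, 926.1 and 1242.6, and the gut gene alphaTry 13.4, 476.5 and 429.0), and whether all 3 arrays hold 1 RNA sample was not established from the values.

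The V-ATPase is a rotary proton pump. Its cytoplasmic V1 sector hydrolyses ATP, and its membrane V0 sector carries protons into lysosomes, endosomes, synaptic vesicles and the lumen of transporting epithelia. In nerve terminals the proton gradient drives the loading of neurotransmitter into vesicles. In insects V-ATPase at the apical membrane of Malpighian tubule cells powers the secretion of urine. The sodium pump (Na,K-ATPase) sets the sodium and potassium gradients of the plasma membrane, SERCA returns calcium to the endoplasmic or sarcoplasmic reticulum, and PMCA expels calcium from the cell. Whole heads hold neurons, glia, photoreceptors, muscle and fat body, so fewer cells of a type and less RNA per cell cannot be told apart.

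Signals are linear intensities in arbitrary units. Arrays that share a replicate number also share the hybridization day and the scaling target (a 2% trimmed mean of 150 for replicate 1, 85 for replicate 2 and 100 for replicate 3). The scaling thus moved with the day in both genotypes, and each LARK overexpression array is set beside the control array of its day. A difference is always LARK overexpression minus control on the log2 scale. Before centering, the median of all 9432 tested probe sets was -0.07, and it was 0.06 once each array was centered on its median, so differences of this size change sign with the scaling. LARK overexpression array 1 correlated at 0.877 and 0.892 with the other arrays of its genotype and at 0.912 with the control array of its day, whereas LARK overexpression arrays 2 and 3 correlated at 0.946. For the eIF-4a array controls, the probe set at the 3′ end over that at the 5′ end gave ratios of 6.05 to 6.52 on LARK overexpression arrays and 2.81 to 3.02 on control arrays, and for ACTIN these were 5.51 to 6.21 and 1.89 to 3.41 (n = 3 arrays each). The eIF-4a and ACTIN ratios moved with genotype. For GAPDH the genotypes overlapped, with 5.06, 4.61 and 3.23 on LARK overexpression arrays and 2.82, 4.04 and 2.95 on control arrays. The part of these ratios in the results was not tested. The lark probe set itself differed by -0.03 (standard error 0.45). The sources used here do not say whether its probes lie in the transgene, so this value does not check the labels.

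Of the 34 genes, 23 read above 40, the expression filter of the study's methods, on all 6 arrays. Another 4 did so on some arrays, and 7 read at most 40 on every array and were not tested. Transcripts of every measured V1 subunit class except A, every V0 class, both accessory proteins, all 3 sodium pump beta subunits and both calcium pumps therefore passed this filter on all 6 arrays through at least 1 gene. Classes with several gene copies usually held only some of them. Vha14-2, Vha36-2 and Vha68-3 among V1 genes and Vha100-4, Vha100-5, VhaAC39-2 and VhaM9.7-d among V0 genes were at or below 40 throughout. Vha16-2, Vha16-4, Vha16-5 and VhaPPA1-2, further copies of the V0 proton-carrying ring subunits, exceeded it on 1 or 2 arrays each. Copies of a subunit can be similar in sequence, and how far the probes tell them apart was not tested.

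**Figure D1:**
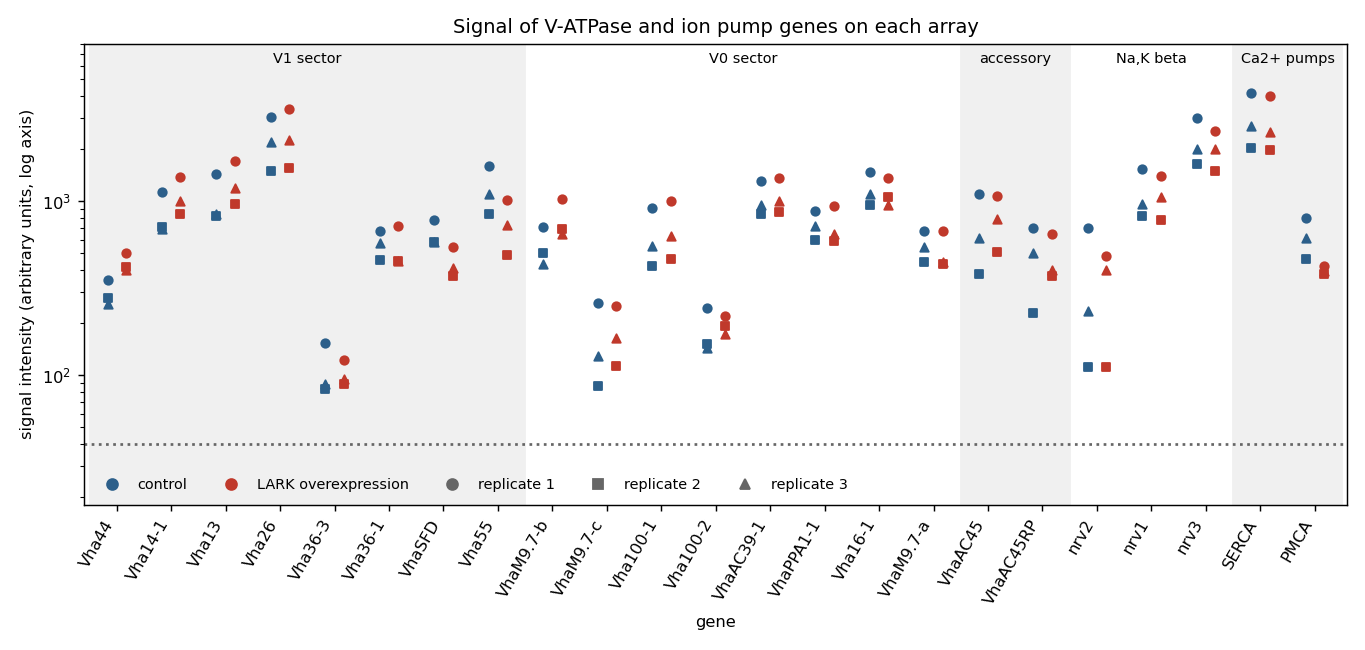
Signal intensity (arbitrary units, log axis) of the 23 genes above 40 on all 6 arrays, by sector, with the 3 control arrays in blue and the 3 LARK overexpression arrays in red. The dotted line marks 40. Replicate 1 (circles) is the brightest array of its genotype for nearly every gene, and the red and blue points do not overlap for Vha44, VhaSFD and PMCA.

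None of the 27 tested genes passed the test in either direction (limma, adjusted p under 0.05 over all 9432 tested probe sets), and none had an unadjusted p under 0.05. Over all tested probe sets 0.339% were called higher and 1.21% lower, so a group of this size would hold few calls at the background rate. None of the 27 differed by more than 1 on the log2 scale at its chosen probe set, against 12.8% of all tested probe sets. Of the 27, 23 were above 40 on all 6 arrays, as were 5381 of the 9432 probe sets. These shares are therefore not matched for signal. With the replicate number as a block, a variance trend and a robust prior, 1 member, Vha55, was called lower and none higher, where the background was 4.55% lower and 1.51% higher.

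The median difference of the 27 tested members was -0.02 and their range was -0.89 to 0.82. Both ends of that range belong to genes of low signal, Vha16-4 and Vha16-2. Among the 23 genes above 40 on all arrays the median was 0.06 and the range -0.68 to 0.59, beside a median of -0.01 over all 5381 probe sets above 40 on all arrays. The 8 V1 genes of this set had a median of 0.02, the 8 V0 genes 0.10, the 2 accessory proteins 0.17, the 3 sodium pump subunits -0.02 and the 2 calcium pumps -0.34. Most of these genes therefore lay close to the bulk of the array, and the wider differences came from a few genes on either side. The array as a whole also held such differences. The quartiles were -0.08 and 0.18 for the 23 genes and -0.25 and 0.21 for the 5381 probe sets.

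**Figure D2:**
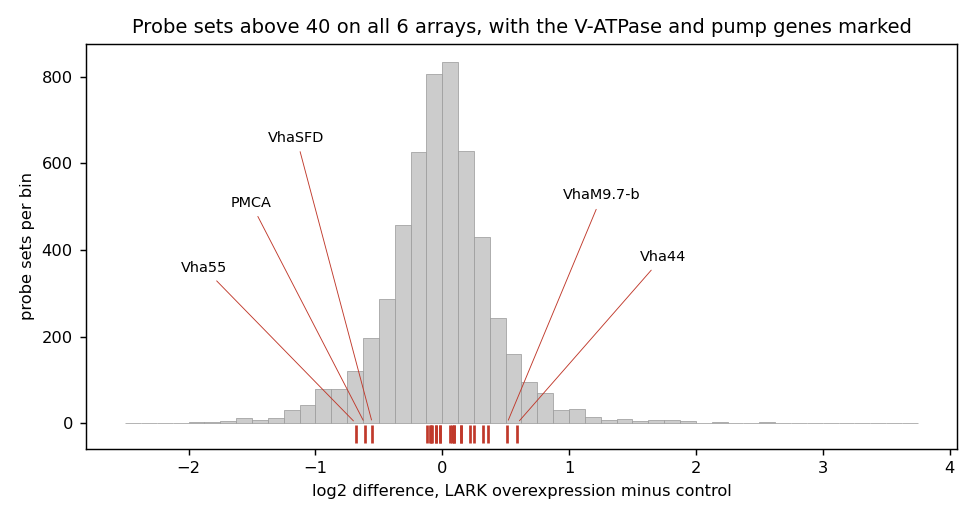
Histogram of the log2 difference (LARK overexpression minus control) for all 5381 probe sets above 40 on all 6 arrays, with the 23 V-ATPase and pump genes as red ticks below it. Vha55, PMCA and VhaSFD form a group between -0.68 and -0.55, VhaM9.7-b and Vha44 lie at 0.51 and 0.59, and the other 18 lie between -0.12 and 0.36.

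The differences of these genes varied little from day to day. The SD of the 3 same-day differences had a median of 0.15 (range 0.02 to 0.67) over the 23 genes, against 0.28 over all 5381 probe sets above 40 on all arrays. The 23 genes also had higher signals, with a median mean log2 signal of 9.33 against 7.21. Of the 27 tested genes, 7 (25.9%) were higher with LARK overexpression on all 3 days and 5 (18.5%) lower, where the background was 17.6% higher and 26.9% lower. After centering of each array these became 12 genes (44.4%) and 4 genes (14.8%), against 26.6% and 19.8%. The split between the directions thus depends on the scaling.

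Within the V1 sector 1 gene read higher and 2 read lower by more than 1.4-fold, with the same sign on every day. This cut was not planned, and the share of all probe sets beyond it was not counted. Of all tested probe sets, 17.6% were higher and 26.9% lower on every day. Vha44 encodes subunit C, which joins V1 to V0 and, in yeast, detaches when the pump is taken apart. The study also lists it as a putative LARK target, enriched by immunoprecipitation in both of its experiments. Those used brains of wild-type pharate adults, and direct binding was not verified in vitro. Vha44 signals were 500.1, 419.6 and 403.6 on LARK overexpression arrays 1 to 3 and 350.1, 277.4 and 255.3 on the control arrays. Every LARK overexpression array was above every control array. The difference was 0.59 (standard error 0.43, 1.51-fold, adjusted p = 0.841, limma), and it was 0.51, 0.60 and 0.66 on the 3 days. The standard error of the unblocked test holds the differences in scaling between days. With the replicate block it was 0.17 and the adjusted p was 0.182, and adding a variance trend and robust prior brought the adjusted p to 0.0528.

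Vha55 encodes subunit B, the partner of the catalytic A subunit in the ATP-hydrolysing head. It read 1017.4, 487.8 and 725.5 with LARK overexpression and 1600.5, 840.6 and 1099.3 in the control. On each day the LARK overexpression array was the lower, although the 2 genotypes overlap when days are mixed. The difference was -0.68 (standard error 0.47, 1.60-fold lower, adjusted p = 0.801, limma) and -0.65, -0.79 and -0.60 by day. The replicate block gave an adjusted p of 0.160, and the block with trend and robust prior 0.0334. This was the only setting that called a member at its chosen probe set. Across 24 alternatives the adjusted p of Vha55 ran from 0.0334 to 1.

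VhaSFD encodes subunit H, a regulatory subunit needed for the activity of the assembled pump. Its signals were 546.3, 372.2 and 411.3 with LARK overexpression and 777.8, 580.5 and 580.5 in the control, so that the genotypes did not overlap. The difference was -0.55 (standard error 0.44, 1.46-fold lower, adjusted p = 0.892, limma), with -0.51, -0.64 and -0.50 by day and an adjusted p of 0.0624 with block, trend and robust prior. A second VhaSFD probe set, not the one chosen by the rule and singled out after its values were seen, read 514.4, 260.9 and 301.5 against 953.3, 634.0 and 793.7. Its difference was -1.19 (standard error 0.46, 2.28-fold lower, unadjusted p = 0.0195, adjusted p = 0.282, limma), and the block with trend and robust prior gave an adjusted p of 0.0084. Both VhaSFD probe sets were lower on all 3 days, by unequal amounts. Which part of the transcript each one reads was not tested.

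The other V1 genes lay nearer to zero. Vha13 (subunit G, in the peripheral stalk) read 1697.0, 956.2 and 1189.1 against 1423.9, 821.2 and 842.8, a difference of 0.32 (standard error 0.46). Vha14-1 (subunit F, in the central stalk) read 1384.3, 848.3 and 998.8 against 1127.4, 714.0 and 695.3, a difference of 0.36 (standard error 0.45). These 2 genes, named after their values were seen, were higher on every day, by 0.22 to 0.52, and each was under 1.3-fold. Vha26, subunit E of the peripheral stalk and the V1 gene of highest mean log2 signal, read 3399.6, 1559.4 and 2239.8 with LARK overexpression and 3056.5, 1491.0 and 2178.1 in the control. Its difference of 0.09 (standard error 0.48) was far inside the spread between arrays. Vha36-1 and Vha36-3, copies of the D subunit of the rotor, differed by -0.09 and -0.05 and changed sign between days.

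**Figure D3:**
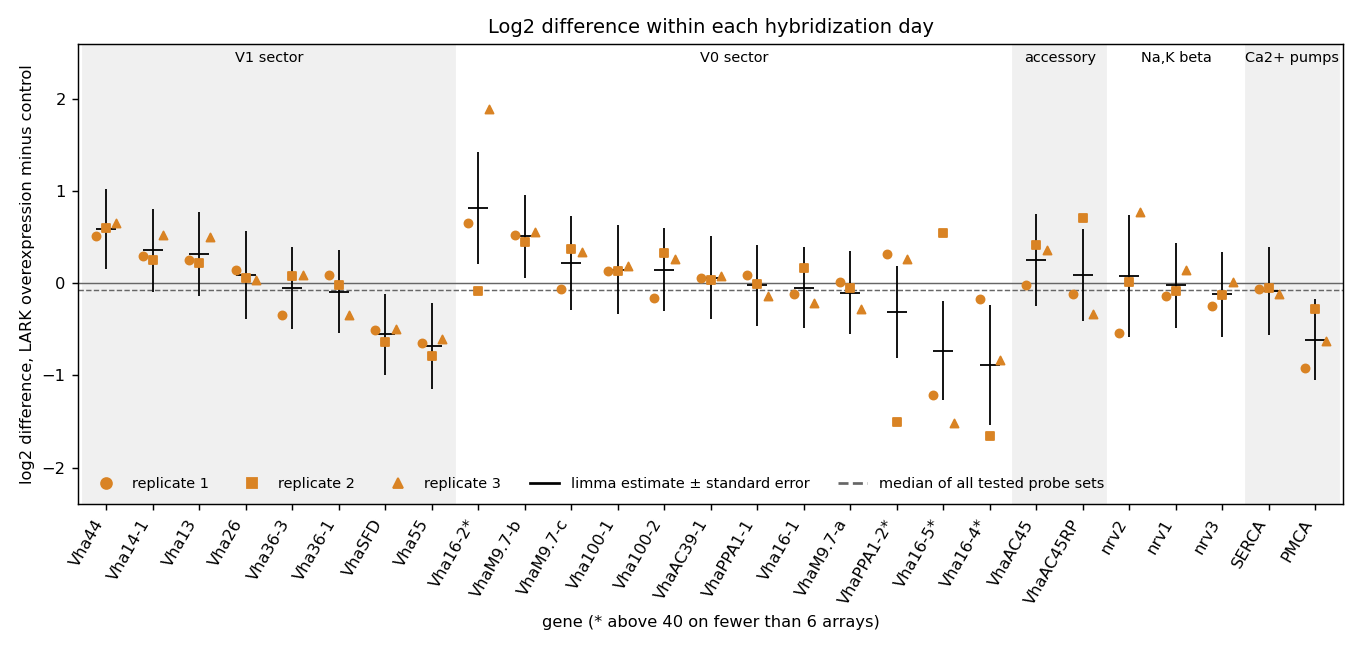
Log2 difference, LARK overexpression minus control, for the 27 tested genes, with orange points for the same-day differences of replicates 1, 2 and 3 and black bars for the limma estimate ± 1 standard error. The dashed line is the median of all tested probe sets (-0.07). The 3 points of Vha44, VhaM9.7-b, VhaSFD and Vha55 lie close together and away from zero, while those of the low-signal genes (asterisks) and of nrv2 and VhaAC45RP are spread widely.

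In the V0 sector the gene farthest from zero among those of high signal was VhaM9.7-b, 1 of 4 genes for the small e subunit. It read 1028.9, 689.3 and 647.2 with LARK overexpression and 714.1, 504.5 and 437.6 in the control. LARK overexpression was higher on each day, with overlap between days. The difference was 0.51 (standard error 0.45, 1.43-fold, adjusted p = 0.945, limma) and 0.53, 0.45 and 0.56 by day, and the adjusted p was 0.0725 with block, trend and robust prior. The sister gene VhaM9.7-a read 677.4, 432.2 and 449.1 against 668.9, 448.1 and 545.4, a difference of -0.10. VhaM9.7-c differed by 0.22.

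Vha16-1 encodes the c subunit of the proton-carrying ring and had the highest mean log2 signal of the V0 genes. It read 1364.4, 1061.1 and 946.1 with LARK overexpression and 1479.4, 945.2 and 1092.3 in the control, a difference of -0.05 (standard error 0.44) whose sign changed from day to day. VhaPPA1-1, another ring subunit, differed by -0.02. VhaAC39-1, subunit d, which links the ring to the rotor, read 1363.2, 861.7 and 1001.6 against 1310.4, 841.0 and 946.7. Its difference of 0.06 was nearly the same on each day (0.06, 0.04 and 0.08).

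The large a subunit holds the channels through which protons reach the ring. Vha100-1, the copy known in Drosophila for its function in neurons and at synapses, read 998.1, 463.4 and 627.5 with LARK overexpression and 911.3, 423.7 and 550.3 in the control. It was slightly higher on each day (0.13, 0.13 and 0.19), with a difference of 0.15 (standard error 0.48). Over the same arrays, 3 of 6 tested neuron marker genes were called lower (limma), with a list median of -1.66, and the summed signal of the 7 neuron markers on the array ran from 510 to 959 with LARK overexpression and from 1291 to 1926 in the control. One of these, brp, was at most 40 on all arrays, elav differed by -0.13, and ChAT differed by 0.37 and was higher on all 3 days (0.28, 0.23 and 0.61). The replicate block alone called none of the 6, and the block with trend and robust prior called 4 lower. The part of this shift in the pump results was not tested. Vha100-2 differed by 0.15, with a lower value on the first day (-0.16) and higher values on the other days (0.33 and 0.27).

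Of the 4 genes that were above 40 on some arrays only, none gave a steady value. Vha16-4 read 55.3, 11.4 and 9.4 with LARK overexpression and 62.3, 36.0 and 16.7 in the control, a difference of -0.89 (standard error 0.65). The differences of Vha16-2, Vha16-5 and VhaPPA1-2 were 0.82, -0.73 and -0.31, with both signs among the 3 days of each gene. Most of these readings lie below 40, and the same-day differences between genotypes of these 4 genes reached 1.89 in size. The accessory protein gene VhaAC45, whose product helps to assemble and sort the pump, differed by 0.25 (-0.02, 0.42 and 0.36 by day), and VhaAC45RP differed by 0.09 with a range of -0.33 to 0.71 across days.

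Without centering, the 2 genotypes were fully apart for 1 gene that was higher, Vha44 (3.70% of members, background 3.88%), and for 2 that were lower, VhaSFD and PMCA (7.41%, background 8.58%). These shares are near the background. On centered arrays 6 genes were higher without overlap (Vha44, VhaM9.7-b, Vha13, Vha14-1, VhaAC39-1 and the low-signal Vha16-2, 22.2% against a background of 13.9%) and 3 were lower (Vha55, VhaSFD and PMCA, 11.1% against 12.2%). With the replicate block and no adjustment, 2 members had a p under 0.05 on the higher side, VhaM9.7-b and Vha44 (7.41%, against 6.17% of all tested probe sets), and 3 on the lower side, Vha55, VhaSFD and PMCA (11.1%, against 14.0%).

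Because the day's scaling cancels between genes on 1 array, the ratio of a pair of genes can be followed from control to LARK overexpression. The 5 pairs computed were chosen after their values were seen and are given without a test. The log2 ratio of Vha44 to Vha55, subunits C and B of the same sector, was higher with LARK overexpression by 1.17, 1.38 and 1.26 on the 3 days. That of Vha44 to VhaSFD was higher by 1.02, 1.24 and 1.16, and that of Vha13 to Vha55 by 0.91 to 1.1. The ratio of VhaM9.7-b to VhaM9.7-a shifted by 0.62 on average and that of SERCA to PMCA by 0.54.

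**Figure D4:**
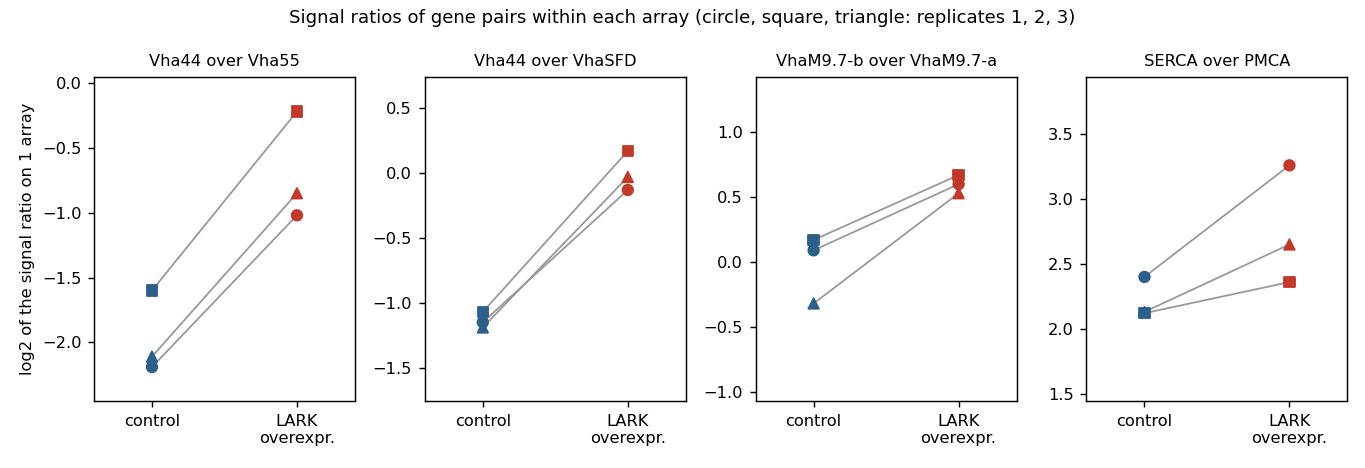
Log2 of the signal ratio of 4 gene pairs within each array, control (blue) and LARK overexpression (red), with lines joining arrays of the same day and panels of equal height in log2 units. Only the shift along a line can be read, since levels of different probe sets are not comparable, and every line rises: by 1.17 to 1.38 for Vha44 over Vha55 and by 0.24 to 0.85 for SERCA over PMCA.

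The sodium pump was read through its beta subunits, which carry the catalytic subunit to the plasma membrane. The study lists nrv3 as a putative LARK target in the first of its experiments only, and nrv3 had the highest mean log2 signal of the 3. It read 2516.9, 1496.0 and 2001.1 with LARK overexpression and 2997.3, 1640.4 and 1986.1 in the control, a difference of -0.12 (standard error 0.46) that was 0.00 on centered arrays. The values of the genotypes interleave. Its relative nrv1 differed by -0.02, and nrv2, the beta subunit used in Drosophila as a glial marker, by 0.08 with daily values of -0.54, 0.01 and 0.78. The genes nrv1 and nrv2 lie next to each other in the RefSeq annotation. The differences of nrv1, nrv2 and nrv3 were all lowest on day 1 and highest on day 3.

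The study's list pairs a further probe set with Atpalpha as a putative LARK target in both experiments. The annotation used here gives this probe set no gene, so it is not counted among the members. It read 413.1, 257.0 and 434.9 with LARK overexpression and 395.6, 146.1 and 245.2 in the control. The difference was 0.57 (standard error 0.49, adjusted p = 0.935, limma), almost all of it from days 2 and 3 (0.81 and 0.83, against 0.06 on day 1). The 3 probe sets that the study lists for these pumps thus differed by 0.59, 0.57 and -0.12, and none passed the test. For most of its putative targets the study itself reports no significant change of RNA abundance on arrays with LARK overexpression.

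The 2 calcium pumps had unequal differences. PMCA read 421.5, 383.4 and 397.2 with LARK overexpression and 796.2, 465.9 and 616.1 in the control, so every LARK overexpression array was below every control array. Its difference was -0.61 (standard error 0.44, 1.53-fold lower, adjusted p = 0.826, limma), with -0.92, -0.28 and -0.63 by day and an adjusted p of 0.0727 with block, trend and robust prior. Without LARK overexpression array 1, on centered arrays, the difference was -0.30. SERCA, which also had the highest mean log2 signal of the 2, read 4024.4, 1968.4 and 2488.5 against 4203.3, 2032.1 and 2699.0. Its difference was -0.08 (standard error 0.48) and -0.06, -0.05 and -0.12 by day, and 0.05 on centered arrays.

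SERCA is abundant in muscle and V-ATPase in gut and renal tubules, so markers of these tissues were read on the same arrays. Of 5 muscle markers measured, 1, fln, was called higher. The genes fln and TpnC4 passed the filter of 40 only on LARK overexpression arrays 2 and 3. Act88F and TpnC4 differed by 3.08 and 4.93 and up by 0.27, while Mlp84B differed by -0.48 and was lower on all 3 days. The summed signal of the list was 2052, 5593 and 6612 with LARK overexpression and 2366, 1478 and 1749 in the control. The sum was above that of the control on arrays 2 and 3 and below it on array 1, and SERCA differed by -0.05 and -0.12 on days 2 and 3. The part of muscle RNA in the SERCA values was not tested. All 5 gut markers were called higher, with summed signals of 187, 1853 and 1912 against 86.1, 69.9 and 68.1. None of their control signals exceeded 30.6, below the filter of 40, so these genes were tested only through LARK overexpression arrays. The filter thus favored calls of higher among them. The gut sum was higher with LARK overexpression on every day, day 1 included. On day 1 the maltase gene Mal-A1 differed by 1.99 and Jon25Biii by 2.24, the latter at signals of 10.4 against 2.2. On that day alphaTry, Jon99Fii and betaTry differed by only 0.17, 0.39 and 0.63. Of 3 Malpighian tubule markers measured, Irk3 and NaPi-T were at most 40 on all arrays, and ZnT35C was not called (1.66). The part of gut and tubule RNA in the V-ATPase values was not tested. Of 4 glial markers, which include nrv2, and 3 photoreceptor markers, none was called, and all were above 40 on at least 1 array. The photoreceptor markers, which mark the head, had summed signals of 8092 to 16913 with LARK overexpression and 11104 to 15087 in the control. Among 5 fat body genes 1, Fbp1, was called higher (2.78), while Yp1, Yp2 and Yp3 differed by -0.27, -0.28 and -0.21 and the list median was -0.21. The summed signal of the fat body list was 45572, 26576 and 25111 with LARK overexpression and 34510, 36961 and 38231 in the control. Calls of these markers depended on the block: with the replicate block alone none of the gut genes (adjusted p = 0.0981 to 0.208, limma), fln (0.212) or Fbp1 (0.122) was called, and with trend and robust prior added only 1 gut gene, Jon25Biii, was (0.0334).

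Other ion transporters and helpers of the V-ATPase were taken from a list of 26 genes, of which 20 were on the array by name and 16 were tested. None was called in either direction, the median difference was 0.03, and 10 of 16 lay above 0. Over all tested probe sets the median was -0.07 and 43.8% lay above 0. ATP6AP2, the accessory subunit also known as the prorenin receptor, differed by 0.10. Nhe2, a sodium/proton exchanger, read 34.3, 46.0 and 18.4 with LARK overexpression and 73.3, 80.3 and 72.2 in the control. Its arrays did not overlap, its difference was -1.29 (standard error 0.47, unadjusted p = 0.0139, adjusted p = 0.240, limma), and the block with trend and robust prior gave an adjusted p of 0.0499. Rbcn-3B, a subunit of the rabconnectin complex that promotes V-ATPase assembly, read 13.8, 40.5 and 32.5 against 117.4, 34.5 and 92.0. The difference was -1.45 (standard error 0.56, unadjusted p = 0.0185, adjusted p = 0.274, limma), but it was 0.23 on the second day. Mitf, the transcription factor known to activate V-ATPase genes in Drosophila, read at most 40 on all arrays.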

How the data were processed

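The authors deposited linear signal intensity values of 6 whole-genome arrays, and the submitters' notes on processing give MAS5 as the tool, with no version. The study's methods describe GCRMA, so the deposited intensity values need not be those analysed in the paper. Here 9432 of the 13966 probe sets that are not array controls exceeded 40 on 1 array or more and were tested on the log2 scale. The genotype contrast was fitted in limma (version 3.58.1, R 4.3.3), two-sided, with p-values adjusted over the tested probe sets by the Benjamini-Hochberg method, and a call needed an adjusted p under 0.05. The fit was tested on simulated data with planted log2 changes of at least 1 in size and no shared day effect. That test does not cover the smaller differences of the members.

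The annotation gives 12443 probe sets a single symbol, 327 several and 1196 none, and all 34 member symbols are current in RefSeq. Genes of highest mean signal in a class and genes listed by the study as putative LARK targets were described on every array. So were genes called, with an unadjusted p under 0.05 or without overlap between genotypes. Others described so were chosen after their values were seen. The members, lists and alternatives were chosen with earlier results of these data known.

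By the headers of the array run files, arrays with the same replicate number share a day of hybridization. By the trimmed means of the deposited values they also share a scaling, so the number served as a replicate block. Deviations of same-numbered arrays from their genotype means correlated at 0.0936, 0.172 and 0.0256 over probe sets, and at -0.212 to 0.102 for other pairs. LARK overexpression array 3 correlated better with control array 1 (0.102) than with control array 3 (0.0256). The values thus do not bear out the pairing of replicate 3, on which the block settings also rest. Alternatives changed the scaling, offset, floor, filter, probe set rule, prior, block and arrays used. After seeing the data, leaving out each array and using replicates 2 and 3 alone were repeated on centered arrays. Depth does not apply to arrays, and their number limits the precision. Promoter sequences were not used here.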

Additional observations from a re-analysis of the deposited data

How the results depend on the processing

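Of 24 alternatives, only the replicate block with trend and robust prior called a member at its chosen probe set (1 lower, Vha55, difference -0.68). In that setting the second VhaSFD probe set had an adjusted p of 0.0084 (limma). The rule had chosen between the 2 VhaSFD probe sets on mean log2 signals of 9.05 and 9.02. With the mean of its probe sets VhaSFD was -0.87. The replicate block alone called none and left every estimate as it was (Vha55 -0.68, adjusted p = 0.160). The member median of -0.02 became 0.11 and the count above 0 went from 13 to 20 with each array centered. The median of all tested probe sets moved from -0.07 to 0.06 in the same step. Before centering 43.8% of them lay above 0. The member median was 0.06 with a filter above 100 and 0.06 with the mean of a gene's probe sets. With replicates 2 and 3 alone on centered arrays it was 0.17. Leaving out each array in turn, centered or not, gave medians from -0.20 to 0.24 and 6 to 21 members above 0. Without centering, leaving out an array also removes the balance of the day scalings. No alternative turned the sign of Vha44, Vha55, VhaSFD, PMCA, VhaM9.7-b, Vha13 or Vha14-1. Leaving out each array, Vha44 ran from 0.49 to 0.86, Vha55 from -0.94 to -0.41, VhaSFD from -0.71 to -0.32, PMCA from -0.81 to -0.30 and VhaM9.7-b from 0.31 to 0.77.

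Signs did turn for other members, none of them called, and the cause was not tested. With each array centered, Vha16-1 was 0.07, VhaM9.7-a 0.02, VhaPPA1-1 0.11, Vha36-1 0.03, Vha36-3 0.07, SERCA 0.05 and nrv1 0.10. Quantile normalization gave Vha26 -0.06 and Vha36-3 0.03, a floor at 40 gave VhaPPA1-2 0.05, and the mean of probe sets gave VhaPPA1-1 0.14. Replicates 2 and 3 alone gave Vha36-3 0.09 and nrv1 0.03, and on centered arrays Vha16-1 0.09, VhaPPA1-1 0.04, Vha36-3 0.20, SERCA 0.03, nrv1 0.15 and nrv3 0.05. Leaving out each array gave ranges of -0.36 to 0.21 for SERCA, -0.15 to 0.46 for Vha100-1, -0.20 to 0.14 for Vha16-1, -0.20 to 0.36 for Vha26, -0.31 to 0.10 for Vha36-1 and -0.21 to 0.22 for Vha36-3. They were -0.13 to 0.24 for VhaAC39-1, -0.12 to 0.65 for VhaAC45, -0.38 to 0.44 for VhaAC45RP, -0.31 to 0.07 for VhaM9.7-a, -0.14 to 0.65 for VhaM9.7-c, -0.22 to 0.15 for VhaPPA1-1 and -0.70 to 0.16 for VhaPPA1-2. For nrv1, nrv2 and nrv3 they were -0.23 to 0.24, -0.54 to 0.79 and -0.32 to 0.12. Signals at or below 40 limit what can be said of 11 members. The planned description of promoter motifs was not run.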
